A study of Mus musculus with 6 samples.

Results

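The steroid hormone receptors and the proteins that fold, assist or mark them were followed here in the uterine epithelium of pregnant mice. The set held 10 genes: the estrogen receptors Esr1 and Esr2, the progesterone receptor Pgr, the glucocorticoid receptor Nr3c1, the mineralocorticoid receptor Nr3c2, the cochaperones Fkbp4 and Fkbp5, the membrane component Pgrmc1, the transcription factor Gata2 and the receptor cofactor Greb1. Every probe set whose platform annotation gave 1 of these symbols was taken, which made 10 of the 18193 genes with a single-symbol probe set and 27 of the 45101 probe sets on the array. Measured values played no role in that step, but the 10 genes were chosen with earlier results of these data known.

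The study compared 3 groups of 2 mouse samples each. Wild-type females on day 1 of pregnancy, counted from the vaginal plug, gave samples 302 and 303, and wild-type females on day 4 gave 277 and 284. Samples 253 and 281 came from Sox17-heterozygous mutants on day 4, which the design text writes as Sox17GFP/+, with a GFP allele in place of a wild-type one. The labels give neither strain nor age, and they do not say that each sample came from 1 animal. All groups shared the enzymatic separation of the epithelium with pancreatin and dispase. Because 2 samples a group measure the spread thinly, p-values describe the spread between these samples only, which may be technical. The design asks how the epithelium differs between these days of early pregnancy, and how the Sox17 heterozygote differs from the wild type on day 4.

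Steroid receptors are transcription factors that wait in a complex with heat shock protein chaperones until hormone binds. The immunophilin Fkbp4 (FKBP52) supports hormone binding by the progesterone and glucocorticoid receptors, while Fkbp5 (FKBP51) competes with it and is itself induced by glucocorticoid and progestin. In the rodent uterus estrogen drives epithelial proliferation in the first days of pregnancy, and progesterone from the corpora lutea then halts it and prepares the epithelium for the embryo. Gata2 acts upstream of Pgr in the uterus, and Greb1 is a classical early estrogen-induced gene that also serves as a receptor cofactor.

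Signals below are the deposited values of each array on a linear scale. Changes are on the log2(signal + 1) scale with limma's standard error (± SE, n = 2 arrays a group). That error is always of the default fit, also where the p-value beside it comes from another fit. A probe set passed at a Benjamini-Hochberg adjusted p under 0.05 over the 45037 probe sets that were not controls. All p-values come from limma fitted on all 6 arrays, with eBayes at its default settings unless the fit with an intensity trend, which lets the expected spread depend on brightness, is named. The smallest p that an exact permutation of 2 arrays against 2 can reach is 0.333, so none was run. A lack of overlap between 2 arrays and 2 others reaches no smaller p, so it is only described below. The share of all probe sets that separate in this way was not counted. Signals of different probe sets were not set against each other, since each has its own response.

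The trimmed mean of every array was 500, but the WT day 4 array 277 stood apart. Its median signal was 138, where the 5 others had 66.2 to 78.0. A signal under 50 was found at 27.0% of its probe sets, where the 5 others had 41.6% to 44.6%. The median absolute log2 difference within a pair was 0.77 for WT day 4, 0.38 for WT day 1 and 0.35 for the heterozygous pair. The median of all log2 changes from day 1 to day 4 was 0.27 with the deposited scaling, 0.06 after quantile normalization and -0.04 after centring arrays on their medians, so small changes depend on the scaling. Sox17 itself read 34794 and 35060 on WT day 4 and 30189 and 28810 in the heterozygotes, and its log2 difference of -0.24 ± 0.24 did not pass (adjusted p = 0.702). Whether that probe set lies in the replaced part of the gene is not given, so it does not check the genotype. Of 10 epithelial markers, 9 were measured, and their summed signal was 149570 to 170150 on all 6 arrays. Among them Krt7 fell from day 1 to day 4 (-2.33, adjusted p = 0.0213), and with the intensity trend described above 3 passed as lower and 1 as higher.

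Of the 27 probe sets, 15 read at least 50 on every array, 9 crossed that level and 3 stayed under it on all arrays, against 19.8% of all tested probe sets that stayed under it. The 3 were those of Esr2, Nr3c1 1431378_at and Fkbp5 1447736_at. No detection calls were used, so such signals are read only as low.

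Between day 1 and day 4 in wild-type epithelium, Pgr, Fkbp5 and Gata2 rose at 1 probe set each, 6.64-fold, 9.27-fold and 3.62-fold, and no member probe set fell. No probe set of the estrogen, glucocorticoid or mineralocorticoid receptors passed. That is 3 of 27 higher, where 3.26% of all tested probe sets were called higher and 2.68% lower. With the intensity trend, 9 of 27 passed as higher and 2 as lower, where 9.18% of all probe sets were called higher and 8.24% lower. The 9 were all 3 of Pgr, 2 of Fkbp5, both of Gata2, 1 of Fkbp4 and that of Pgrmc1, and the 2 were both of Greb1. The median change of the 27 was 0.27, equal to that of all probe sets, and 16 were positive (60.6% of all probe sets).

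The changes of Pgr, Fkbp5 and Gata2 stayed positive when single arrays were left out, while their default calls were mostly lost. In most of these fits every other default call was lost too, so the loss there says little of these genes. Over the 6 arrays left out in turn, Pgr 1421444_at differed by 2.26 to 3.20 with adjusted p-values of 0.0448 to 0.205, passing without the WT day 4 array 284 and in no other such fit. Fkbp5 1416125_at gave 2.84 to 3.59 (0.0539 to 0.148) and Gata2 1450333_a_at 1.74 to 1.97 (0.0543 to 0.196), passing in none. In the fit with the intensity trend all 9 higher calls held whichever array was left out.

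**Figure D1:**
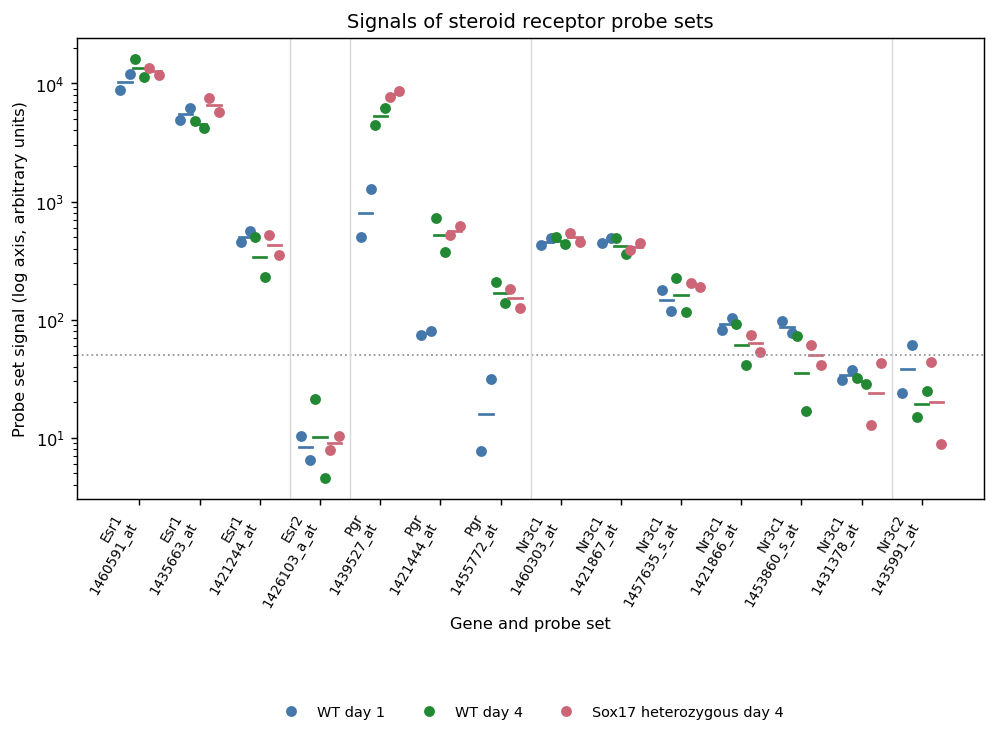
Signal of the 14 receptor probe sets (horizontal axis) on the 6 arrays, on a log axis in arbitrary units. Points are single arrays, bars the mean of log2 values of each group of 2, and the dotted line marks a signal of 50. The Pgr points of day 4 lie above both day 1 arrays at all 3 probe sets, while those of Esr1 1460591_at and of the Nr3c1 probe set 1460303_at overlap between days.

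Pgr encodes the nuclear progesterone receptor and was read by 3 probe sets that gave the same direction. Probe set 1439527_at read 499 and 1269 on WT day 1, 4470 and 6175 on WT day 4, and 7657 and 8612 in the heterozygotes. Probe set 1421444_at read 74.6 and 80.7 on day 1, 723 and 375 on WT day 4, and 517 and 622 in the heterozygotes. Every day 4 array was above both day 1 arrays for both. Probe set 1455772_at was dim on day 1 (7.78 and 31.4) and read 206 and 137 on WT day 4 and 182 and 126 in the heterozygotes.

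Of these, 1421444_at passed, with a log2 change of 2.73 ± 0.40 (adjusted p = 0.0371). The change at 1439527_at was of the same size, 2.72 ± 0.53, with an adjusted p of 0.0625, and that at 1455772_at was 3.33 ± 0.72 (adjusted p = 0.0767). Both day 1 signals at 1455772_at were under 50, and its change was 2.39 to 4.27 with single arrays left out, lowest without 302 and highest without 303. With a pseudocount of 32 in place of 1 it was smaller than in any of these fits (adjusted p = 0.0170). With the intensity trend all 3 passed, at adjusted p-values of 0.000109, 9.68e-05 and 0.00651. The 2 day 1 arrays differed more at 1439527_at than at 1421444_at, as the signals above show. Because the tissue was measured in bulk, fewer cells of a type and less RNA per cell cannot be told apart in this or any later result. Stromal cells also carry Pgr. The summed signal of 12 stromal markers was 5597 and 11298 on WT day 1 and 4582 and 5446 on WT day 4. It was 3962 and 3971 in the heterozygotes, and Pdgfra was under 50 on all arrays. The median change of these markers from day 1 to day 4 was -0.21, within a range of -1.92 to 1.15. None passed at default settings, and 3 passed as lower with the trend. Their part in the Pgr result was not tested.

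RefSeq's promoter windows (GRCm38.p6, 250 bases before to 50 after an annotated start, read along the gene) were available for 9 of the 10 genes. The windows of 4 genes are shown: those of Greb1 and Pgrmc1 that hold a match to a motif searched, and those of Pgr and Fkbp5, the members that passed at default settings in both comparisons with day 1. In all, 3 motifs were searched on both strands: AGAACA, the core that progesterone and glucocorticoid receptors bind, present in 19% of 32851 windows, AGGTCA, a core of the estrogen response element, in 16.3%, and the motif of GATA factors, spelled AGATAA, in 11.2%. No pair of matches overlapped. Matches are in capitals, and no other letter is. Pgr lies at chr9:8899583-8899882 (+), Fkbp5 at chr17:28486100-28486399 (-), Greb1 at chr12:16800837-16801136 (-) and Pgrmc1 at chrX:36597943-36598242 (+).
Pgr: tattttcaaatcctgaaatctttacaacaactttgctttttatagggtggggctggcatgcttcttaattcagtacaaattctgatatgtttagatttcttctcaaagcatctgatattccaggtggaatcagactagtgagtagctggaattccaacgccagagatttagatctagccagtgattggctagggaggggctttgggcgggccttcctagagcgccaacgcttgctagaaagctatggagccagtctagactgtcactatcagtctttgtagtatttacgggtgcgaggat
Fkbp5: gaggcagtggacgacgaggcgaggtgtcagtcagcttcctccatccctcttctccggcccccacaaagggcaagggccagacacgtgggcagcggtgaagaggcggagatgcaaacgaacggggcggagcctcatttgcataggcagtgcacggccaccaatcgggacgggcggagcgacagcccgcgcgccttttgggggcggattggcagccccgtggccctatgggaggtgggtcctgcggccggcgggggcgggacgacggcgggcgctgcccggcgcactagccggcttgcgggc
Greb1: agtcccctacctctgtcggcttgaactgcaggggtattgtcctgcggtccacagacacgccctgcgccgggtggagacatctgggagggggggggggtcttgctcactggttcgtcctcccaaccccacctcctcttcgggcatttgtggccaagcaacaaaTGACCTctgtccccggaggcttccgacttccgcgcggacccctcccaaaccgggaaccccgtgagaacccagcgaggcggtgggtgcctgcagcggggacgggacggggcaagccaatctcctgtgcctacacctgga
Pgrmc1: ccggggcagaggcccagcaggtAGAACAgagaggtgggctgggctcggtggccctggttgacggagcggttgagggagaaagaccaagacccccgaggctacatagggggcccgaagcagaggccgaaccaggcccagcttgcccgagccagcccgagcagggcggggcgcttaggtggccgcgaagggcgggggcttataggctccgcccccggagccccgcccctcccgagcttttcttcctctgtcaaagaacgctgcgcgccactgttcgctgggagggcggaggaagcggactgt
Over the 12 windows of the 9 genes, 2 matches were found. The Greb1 window shown holds AGGTCA on the strand opposite to the gene, printed as TGACCT, at -88 from the start. The other Greb1 window, at chr12:16757190-16757489 (-), holds no match and is not shown. The Pgrmc1 window holds AGAACA at -228. The Pgr and Fkbp5 windows held none of the 3, which says only that these letters are not in these windows.

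Esr1, the main estrogen receptor of the uterus, did not pass in any comparison with all 6 arrays, and its probe sets disagreed in sign. Probe set 1460591_at read 8850 and 12077 on WT day 1, 16026 and 11454 on WT day 4, and 13485 and 11831 in the heterozygotes. Probe set 1435663_at read 4927 and 6187, then 4817 and 4236, then 7490 and 5752 in the same order of groups. At 1460591_at the day 1 and day 4 arrays overlapped, whereas at 1435663_at both WT day 4 arrays lay below both day 1 arrays.

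From day 1 to day 4 the log2 changes were 0.39 ± 0.33 at 1460591_at (adjusted p = 0.529), -0.29 ± 0.29 at 1435663_at (0.606) and -0.56 ± 0.49 at the dimmer 1421244_at (0.546). Without the WT day 4 array 277, 1421244_at passed as lower with the trend (-1.12, adjusted p = 0.0393). The 95% interval was -0.47 to 1.25 at 1460591_at and -1.06 to 0.49 at 1435663_at. The intervals leave room for a rise by 2-fold at the first and for a fall by 2-fold at the second.

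Esr2, the second estrogen receptor, had 1 probe set, which read 4.56 to 21.4 on the 6 arrays and stayed under 50 on all of them. Its change of 0.27 ± 0.74 turned negative after quantile normalization (-0.25) and after centring (-0.04). No level can be read from it beyond low.

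Nr3c1, the glucocorticoid receptor, was read by 6 probe sets, none of which passed in any of the 3 comparisons in either fit with all 6 arrays. The brightest, 1460303_at, read 429 and 487 on WT day 1, 496 and 440 on WT day 4, and 545 and 456 in the heterozygotes. All groups overlapped there, and the day change was 0.03 ± 0.26 with a 95% interval of -0.66 to 0.72. The values were -0.14 ± 0.29 at 1421867_at and 0.16 ± 0.44 at 1457635_s_at. The 3 dimmer ones gave -0.57 (1421866_at), -1.27 (1453860_s_at) and -0.17 (1431378_at), all with wide errors. At 1453860_s_at both WT day 4 arrays, 72.3 and 16.9, lay under both day 1 arrays, 96.5 and 76.9. Without array 277 this probe set passed as lower with the trend (-2.29, adjusted p = 0.0472).

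Nr3c2, the mineralocorticoid receptor, read 8.76 to 61.2 at its 1 probe set with no order of groups. The day change was -0.95 ± 0.91 (adjusted p = 0.589).

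Of the cochaperones, Fkbp5 rose at 1 of 3 probe sets. Probe set 1416125_at read 307 and 182 on WT day 1, 2491 and 1944 on WT day 4, and 2018 and 2744 in the heterozygotes. Probe set 1448231_at read 123 and 52.6, then 500 and 467, then 504 and 485. All 4 day 4 arrays exceeded both day 1 arrays at both.

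The log2 change of Fkbp5 from day 1 to day 4 was 3.21 ± 0.39 at 1416125_at (adjusted p = 0.0267) and 2.57 ± 0.46 at 1448231_at (0.0544, and 0.000388 with the intensity trend). The remaining probe set, 1447736_at, read 1.71 to 26.5 and gave -0.41 ± 1.40, with the widest error of all 27.

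Fkbp4 1416362_a_at, the brightest of 3, read 1998 and 2759 on WT day 1, 6853 and 5359 on WT day 4, and 4661 and 5169 in the heterozygotes. Both day 4 groups lay above day 1, and the change in the wild type was 1.37 ± 0.31, 2.58-fold, with an adjusted p of 0.0825 that fell to 0.000285 with the intensity trend. After centring on array medians the change was 1.06 with an adjusted p of 0.345. With the trend and centring together it did not pass, so the call depends on the scaling. Probe set 1416363_at read 128 and 242, then 271 and 279, then 142 and 147, and its change of 0.64 ± 0.38 did not pass in either fit (0.390 and 0.318). At 1459808_at, with signals of 11.7 to 152, the change was 1.85 ± 0.88 (0.299).

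**Figure D2:**
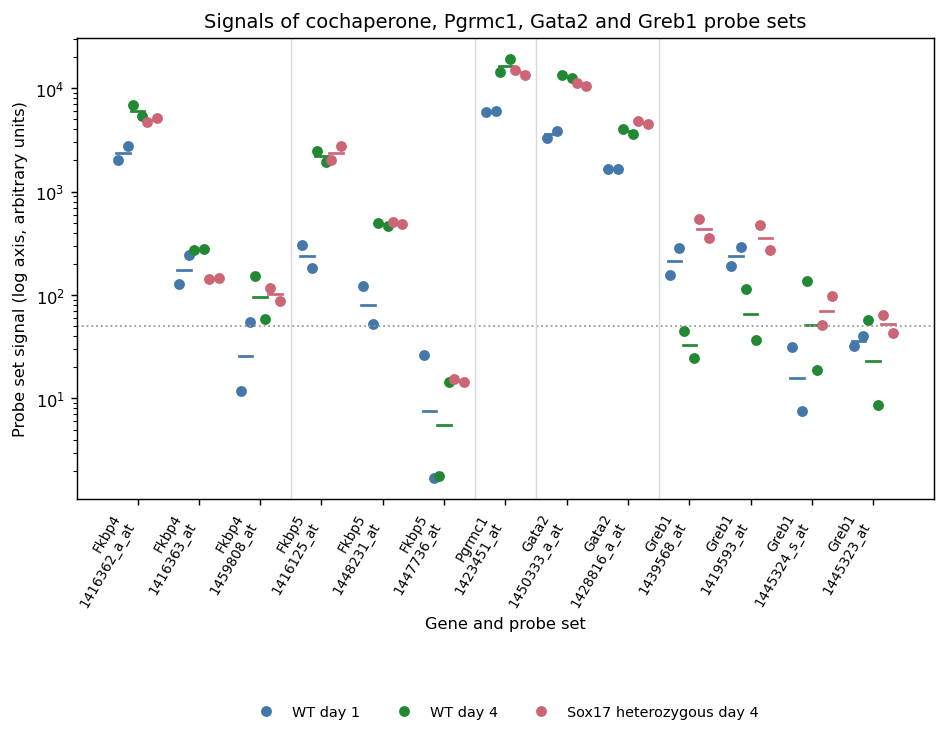
Signal of the 13 probe sets of Fkbp4, Fkbp5, Pgrmc1, Gata2 and Greb1 (horizontal axis) on the 6 arrays, on a log axis in arbitrary units; points are single arrays, bars the mean of log2 values of each group of 2, and the dotted line a signal of 50. Both day 4 groups lie above day 1 for Gata2 and Pgrmc1, and for Greb1 1439568_at the WT day 4 arrays, 44.8 and 24.5, lie below all 4 others.

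Pgrmc1, a heme-binding membrane component linked to rapid progesterone actions, read 5850 and 6001 on WT day 1, 14285 and 19003 on WT day 4, and 14890 and 13541 in the heterozygotes. All 4 day 4 arrays exceeded both day 1 arrays. Its change of 1.48 ± 0.27, 2.78-fold, had an adjusted p of 0.0571 and of 6.83e-05 with the intensity trend. After centring on array medians the change was 1.17 with an adjusted p of 0.374. With the trend and centring together it did not pass, so the call depends on the scaling.

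Gata2, which acts upstream of Pgr, rose at 1450333_a_at from 3311 and 3890 to 13523 and 12506, a change of 1.86 ± 0.25 (adjusted p = 0.0324). After centring on array medians the change was 1.55 with an adjusted p of 0.183, so this call depends on the scaling. At 1428816_a_at it read 1654 and 1660, then 4002 and 3640, a change of 1.20 ± 0.24 (0.0648, and 0.000117 with the trend). Both probe sets separated day 1 from day 4 without overlap.

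Greb1 read lower on day 4 than on day 1 in the wild type, opposite to Pgr. Probe set 1439568_at read 157 and 284 on WT day 1, 44.8 and 24.5 on WT day 4, and 541 and 356 in the heterozygotes. Probe set 1419593_at read 192 and 293, then 115 and 36.7, then 474 and 271. The WT day 4 arrays lay below every other array at both.

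The change from day 1 to day 4 at Greb1 1439568_at was -2.63 ± 0.50 with an adjusted p of 0.0603, and at 1419593_at -1.85 ± 0.68 (0.202). With the trend both passed (0.00198 and 0.0305). Leaving out single arrays under the trend, the call at 1439568_at held each time. At 1419593_at the change was -2.66 to -1.03 with adjusted p-values of 0.00572 to 0.212, and the call was lost without 302, 303 or 284 (0.0589, 0.212 and 0.118). At default settings 1439568_at also passed after quantile normalization, after centring, with a pseudocount of 32 and among probe sets with a mean signal of at least 100. The other 2 probe sets, 1445324_s_at (7.55 to 136) and 1445323_at (8.63 to 63.5), gave 1.64 ± 1.19 and -0.62 ± 0.92.

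In the comparison of genotypes on day 4, Greb1 had the largest difference of the members between the Sox17 heterozygotes and the wild type, and no member passed at default settings. The default fit called 0% of the 45037 probe sets higher and 0% lower, with 4900 at an unadjusted p under 0.05, among them 2 members. With the intensity trend 1.09% were called higher and 0.813% lower. Of the members 2 of 27 were called higher, Greb1 1439568_at and 1419593_at, and none lower. The median change of the 27 was 0.10 against -0.24 for all probe sets and 0.03 for the 16679 bright ones. With the deposited scaling 18 were positive (37.1% of all), but 20 of the 27 changed sign in at least 1 of 23 alternative settings.

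Greb1 1439568_at gave a log2 difference of 3.69 ± 0.50 (adjusted p = 0.240, and 0.00281 with the intensity trend). Both WT day 4 signals there were under 50, and with a pseudocount of 32 in place of 1 the difference was 2.84 (0.107). At 1419593_at the difference was 2.44 ± 0.68 (0.368, and 0.0388 with the trend). Both heterozygous arrays exceeded both wild-type arrays at both, and they lay above WT day 1 at the first and overlapped it at the second. The p-values with the trend were 0.00249 to 0.0794 at 1439568_at when each array was left out in turn, the highest without the heterozygous array 253. At 1419593_at they were 0.0218 to 0.429, and the call held only where the array left out was 302 or 277. Neither passed without array 253. The log2 difference itself ranged from 3.26 to 4.11 and from 1.63 to 3.25 over these fits. The 2 dim probe sets gave 0.46 ± 1.19 and 1.16 ± 0.92.

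Pgr did not pass in this comparison. The difference was 0.63 ± 0.53 at 1439527_at, 0.12 ± 0.40 at 1421444_at and -0.15 ± 0.72 at 1455772_at, with 95% intervals of -0.77 to 2.03, -0.94 to 1.19 and -2.05 to 1.75. At 1439527_at both heterozygous arrays were above both wild-type ones, but this was not so at the other 2. The sign at 1455772_at turned positive after quantile normalization (0.05) and centring (0.30).

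Fkbp5 differed between genotypes by 0.10 ± 0.39 at 1416125_at (95% interval -0.93 to 1.13) and by 0.03 ± 0.46 at 1448231_at, with overlapping arrays. Fkbp4 was lower in both heterozygous arrays than in both wild-type arrays at 2 of 3 probe sets, by -0.30 ± 0.31 at 1416362_a_at and by -0.93 ± 0.38 at 1416363_at. Neither passed (adjusted p = 0.709 and 0.480, and 0.494 and 0.293 with the trend), and the first turned positive after centring (0.15). Pgrmc1 differed by -0.21 ± 0.27, and by 0.24 after centring.

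Esr1 1435663_at was higher in both heterozygous arrays than in both wild-type day 4 arrays, by 0.54 ± 0.29 (adjusted p = 0.542, and 0.192 with the trend). Esr1 1460591_at differed by -0.10 ± 0.33 and by 0.35 after centring. The 6 Nr3c1 probe sets lay between -0.34 and 0.50, and Nr3c2 and Esr2 gave 0.04 ± 0.91 and -0.15 ± 0.74.

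**Figure D3:**
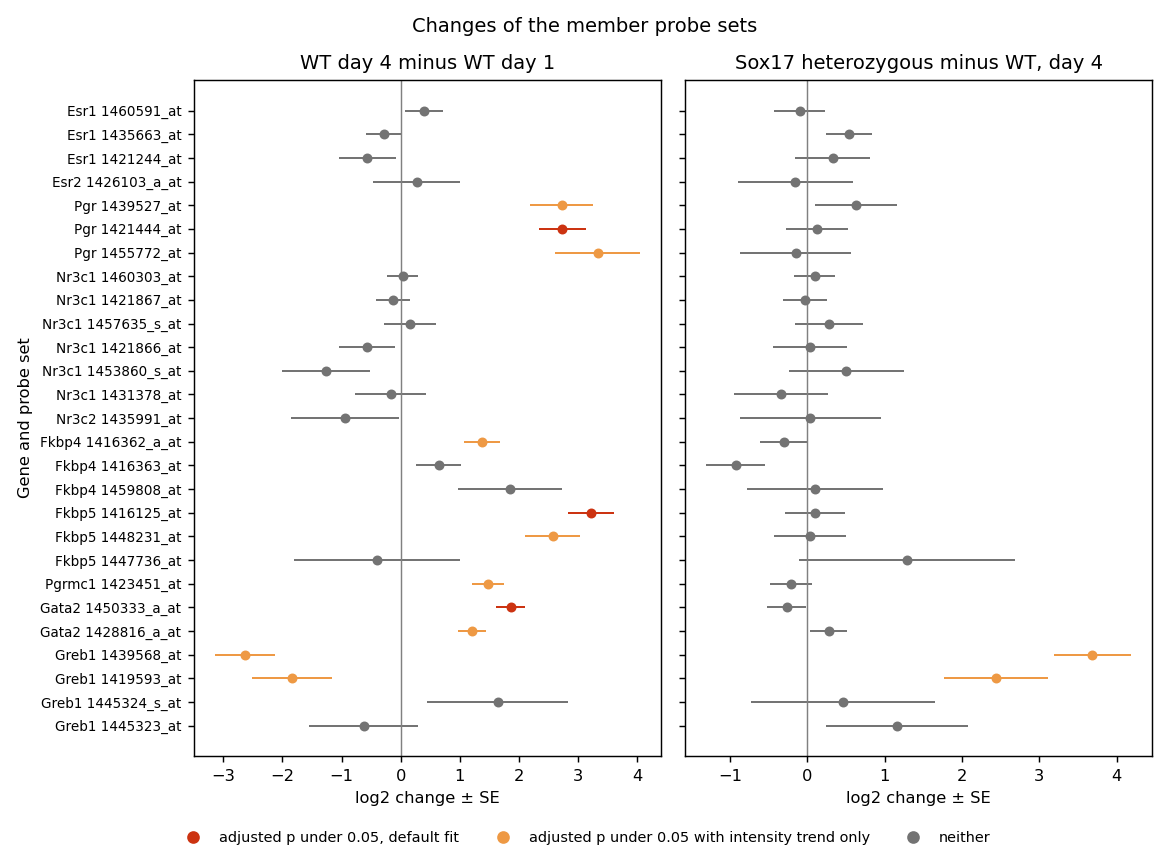
Log2 change (horizontal axis, bars ± SE) of each of the 27 probe sets for WT day 4 minus WT day 1 (left) and Sox17 heterozygous minus WT on day 4 (right). Red points passed in the default fit, orange points with the intensity trend only, grey points in neither; the 2 orange points on the right are Greb1 at 3.69 and 2.44, the same probe sets that lie at -2.63 and -1.85 on the left.

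Set against wild-type day 1, Pgr and Fkbp5 rose in the heterozygotes and Greb1 did not pass. This comparison shares its day 1 arrays with the first and its heterozygous arrays with the second, so the values stand side by side and are not independent. Of the 27 probe sets 2 passed as higher and none as lower, Pgr 1421444_at and Fkbp5 1416125_at, where 1.91% of all were called higher and 1.86% lower. With the intensity trend 9 passed as higher and none as lower, namely all 3 of Pgr, 2 of Fkbp5, both of Gata2, Fkbp4 1416362_a_at and Pgrmc1, where 7.59% and 6.79% of all were called. The median change was 0.59, against -0.04 for all.

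Pgr was higher by 2.85 ± 0.40 at 1421444_at (adjusted p = 0.0432), by 3.35 ± 0.53 at 1439527_at (0.0521) and by 3.18 ± 0.72 at 1455772_at (0.103). Fkbp5 was higher by 3.31 ± 0.39 (0.0340) and 2.60 ± 0.46 (0.0656). Both Gata2 probe sets, 1.59 ± 0.25 and 1.48 ± 0.24, missed the threshold at adjusted p-values of 0.0517 and 0.0545. Pgrmc1 gave 1.26 ± 0.27 (0.0962) and Fkbp4 1416362_a_at 1.06 ± 0.31 (0.161). With single arrays left out, the change was 2.72 to 2.99 at Pgr 1421444_at and 2.94 to 3.68 at Fkbp5 1416125_at. Both default calls held without 277 or 284, and in the other fits every default call of the comparison was lost. Under the trend Pgr 1455772_at lost its call without 302, 253 or 281 (0.0582, 0.137 and 0.0610).

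At Greb1 1439568_at the heterozygotes read 1.05 ± 0.50 above day 1 (adjusted p = 0.357), and at 1419593_at 0.59 ± 0.68 (0.720). These values stand beside -2.63 and -1.85 for the wild type on day 4 over the same day 1 arrays. The difference between these pairs is the comparison of genotypes given above.

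Probe sets of 1 gene did not always move alike. For each pair of the 2 brightest probe sets, the log2 difference on each array was taken after subtracting its mean over the 6 arrays, so that 0 means that the pair moved together. For Esr1 1460591_at over 1435663_at it was -0.30 and -0.18 on WT day 1, 0.59 and 0.29 on WT day 4, and -0.30 and -0.10 in the heterozygotes. The WT day 4 arrays stood above the other 4.

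For Gata2 1450333_a_at over 1428816_a_at the values were -0.37 and -0.14, then 0.39 and 0.41, then -0.13 and -0.15. Again the WT day 4 arrays stood above the other 4. With the deposited scaling the sign of the Gata2 difference between genotypes was opposite at its probe sets, -0.27 ± 0.25 and 0.28 ± 0.24, although their arrays did not overlap at either. After centring both were positive, 0.18 and 0.73.

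For Fkbp4 1416362_a_at over 1416363_at the pattern was another one, with -0.47 and -0.91 on day 1, 0.23 and -0.16 on WT day 4, and 0.61 and 0.70 in the heterozygotes. In the heterozygotes the second probe set lay within its day 1 range, and the first did not. For Fkbp5 the 2 bright probe sets gave -0.68 and -0.22, then 0.32 and 0.06, then 0.01 and 0.50. Pgr 1439527_at over 1421444_at varied within groups, at -0.78 and 0.45, then -0.88 and 0.53, then 0.38 and 0.29. For Greb1 1419593_at over 1439568_at the values were 0.01 and -0.23, then 1.07 and 0.29, then -0.47 and -0.67, so 1439568_at showed the larger swing in both directions. All these values are descriptions of 2 arrays a group, and no test was run on them.

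**Figure D4:**
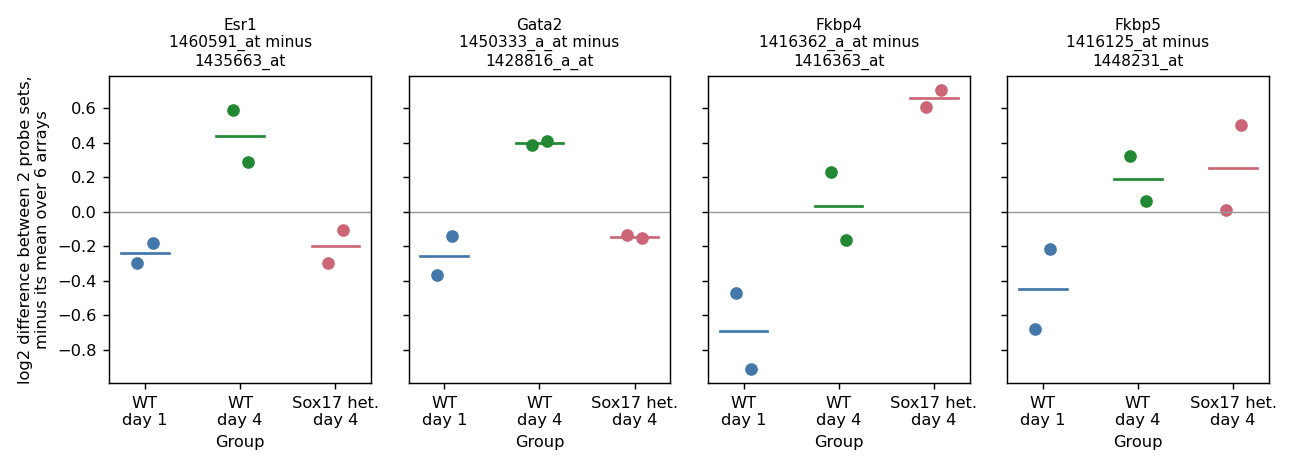
Log2 difference between the 2 brightest probe sets of Esr1, Gata2, Fkbp4 and Fkbp5 on every array, minus its mean over the 6 arrays (vertical axis); points are single arrays, bars group means, and 0 means that the 2 probe sets moved alike. For Esr1 and Gata2 both WT day 4 arrays lie above 0 and the other 4 below it.

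Genes that work around these receptors were counted from lists, each gene at its brightest probe set. Of all probe sets 3.26% were called higher and 2.68% lower from day 1 to day 4, and 9.18% and 8.24% with the trend. For genes at their brightest probe set the share is larger, as a default fit on those called 13.3% in either direction. Of 10 other steroid receptors and membrane binding proteins measured, 1 rose from day 1 to day 4, Gper1, a membrane estrogen receptor that went from 198 and 177 to 1774 and 1401 (3.07 ± 0.26, adjusted p = 0.0167). With the trend 2 passed as higher and none as lower. The list's median change was 0.81, against 0.30 over the brightest probe set of every gene. Probe sets with a mean signal of at least 200 had a median of 0.05. Gper1 read 989 and 991 in the heterozygotes, -0.67 ± 0.26 below the wild type (0.469).

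Of 12 chaperones and cochaperones measured, 1 rose, Dnaja1, a cochaperone of heat shock protein 70, by 1.83 ± 0.27 (adjusted p = 0.0370), and none fell. With the trend 4 passed as higher and 1 as lower, Dnajb1 (-0.68 ± 0.29, 0.0211 with the trend). None of 16 coregulators passed at limma's default settings, and 3 had an unadjusted p under 0.05, as did 23.6% of all probe sets. With the trend 2 passed, Pelp1 (1.18 ± 0.28) and Ncoa2 (0.82 ± 0.25). The median changes from day 1 to day 4 were 0.27 for the chaperones and 0.14 for the coregulators. Between the genotypes no gene of these 3 lists passed in either limma fit, and 3 had an unadjusted p under 0.05. So had 10.9% of all probe sets in that comparison.

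Genes known to respond to each hormone were counted the same way, from lists written with earlier results of these data known. The counts therefore describe these genes and test nothing. Of all probe sets 3.26% were called higher and 2.68% lower from day 1 to day 4. A fit on the brightest probe set of every gene called 13.3% in either direction, with a median change of 0.30. Of 14 progesterone-induced uterine genes measured 6 rose from day 1 to day 4 and none fell, with a median of 1.79. Among them were Ihh (5.09 ± 0.31, adjusted p = 0.0129), the epithelial signal to the stroma, and Lrp2 (9.41 ± 0.31, 0.0106). Of 12 estrogen-induced genes 8 fell and none rose, with a median of -3.97, among them the mucin Muc1 (-4.10 ± 0.31, 0.0157) and Padi1 (-6.98 ± 0.59, 0.0167). Of 12 glucocorticoid receptor targets 6 rose and 2 fell, with a median of 1.43. Zbtb16 (4.16 ± 0.32, 0.0157) and Tsc22d3 (3.54 ± 0.29, 0.0165) were among the former and Ddit4 (-2.43 ± 0.26, 0.0213) among the latter. Sgk1 stands in both the progesterone and the glucocorticoid list. Hand2 and Nr2f2 stand in both the progesterone list and the stromal markers, and the progesterone list also holds Sox17.

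Between the genotypes on day 4 no gene of these lists passed at limma's default settings. With the intensity trend 6 of 12 estrogen-induced genes passed as higher in the heterozygotes and none as lower. Of all probe sets 1.09% were called higher and 0.813% lower. The list's median was 1.85, against -0.20 over the brightest probe set of every gene. Probe sets with a mean signal of at least 200 had a median of 0.03. Greb1, which was kept out of that list, went the same way. The members and the list were both chosen with earlier results of these data known, so neither tests the other. Sprr2f read 3934 and 2263 on WT day 4 and 31941 and 28634 in the heterozygotes (3.34 ± 0.36, adjusted p = 0.232, and 5.11e-05 with the trend). Clca1 differed by 5.62 ± 0.88 (0.243, and 0.000461 with the trend).

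Of 14 progesterone-induced genes 1 passed as higher with the trend, Sgk1 (1.84 ± 0.28, 0.000440), and 1 as lower, Lpar3 (-0.72 ± 0.25, 0.0358). Of 12 glucocorticoid receptor targets 3 passed as higher and 1 as lower with the trend, and the median change was -0.08. Klf9, a glucocorticoid-induced transcription factor, was the lower one (-0.91 ± 0.25, 0.0184 with the trend).

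Markers of other cell types were set beside these values. Summed signals of 8 smooth muscle markers were 968 to 1006 on WT day 1, 358 to 531 on WT day 4 and 201 to 247 in the heterozygotes, with Myh11, Cnn1 and Lmod1 under 50 on all arrays. Those of 8 macrophage markers were 6399 to 6881, 1738 to 3090 and 1464 to 1603. That sum follows 1 bright gene, Cd68 (6401 and 5746 on WT day 1, 224 and 157 on WT day 4), while the median change of the 8 from day 1 to day 4 was 1.47 and Lyz2 rose (2.42, adjusted p = 0.0264). Endothelial sums were 240 to 384, 548 to 875 and 288 to 327, the direction of Pgr on WT day 4 but not in the heterozygotes. Lymphocyte sums were 243 to 294, 189 to 691 and 131 to 189, and neutrophil sums 126 to 234, 195 to 293 and 76.4 to 107. Of the lymphocyte markers Cd4, Cd79a and Ncr1 were under 50 on all arrays, and of the neutrophil markers Cxcr2. The stromal and smooth muscle sums were lower on day 4, and the median change of the smooth muscle markers in the wild type was -0.46. Both sums were lower in the heterozygotes than in the wild type. Of the 8 macrophage markers 7 read higher on WT day 4 than on day 1, as Pgr did, and their median difference between the heterozygotes and WT day 4 was -0.94. The part of these cell types in the results was not tested.

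Genes with the pattern most like 3 members over the 6 arrays were sought among 14918 probe sets with 1 symbol and a mean signal of at least 200, by the root mean square difference of centred log2 signals. Nearest to Pgr 1439527_at were Prim1, a primase subunit, at 0.20, Fggy at 0.22 and Tacc1 at 0.22. Nearest to Fkbp5 1416125_at were Slain1 and Pik3ap1, each at 0.18, and Zfp961 at 0.20. Nearest to Esr1 1460591_at, which moved little, were Pop7 at 0.05, Ptpn3 at 0.06 and Acbd6 at 0.07. These are descriptions over 6 arrays that share their groups, and they say nothing of shared control.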

How the data were processed

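Epithelial RNA of 6 samples was amplified, tagged with biotin and read on Affymetrix 3' arrays of 1 colour, per the labels' protocols. Each deposited value is the signal of a probe set, a linear intensity computed by the authors. The submitters' processing notes list the Affymetrix Expression Console, the Transcriptome Analysis Console and RMA, with no role. A trimmed mean of 500 on every array and unequal quantiles are not the form of RMA output, so the summary method stays unknown, and no detection call was used.

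The platform annotation gave 1 symbol to 34945 of the 45101 probe sets, several to 932 and none to 9160, and 64 were controls. Every member probe set was kept and tested on its own. The log2(signal + 1) values, neither filtered nor normalized again, were fitted in limma 3.58.1 (R 4.3.3) over all 6 arrays with a coefficient per group (3 residual degrees of freedom) and Benjamini-Hochberg adjustment over 45037 probe sets. The added 1 makes fold changes of dim probe sets too small. The fits were tested on simulated data. Alternatives were quantile normalization, centring, a pseudocount of 32, a mean signal of at least 100, eBayes with an intensity trend, eBayes with a robust prior, fits on the 4 arrays of a comparison, array weights, the brightest probe set per gene, an adjusted p under 0.1 and leaving out each array. The trend combined with centring, quantile normalization or an array left out was added after seeing the data.

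The members and the gene lists were chosen with earlier results of these data known. Named were all member probe sets, up to 4 genes of each list and comparison by unadjusted p, and the 3 genes nearest to each of Pgr, Esr1 and Fkbp5. Nr3c1 had no promoter window in the table used. List genes for which no single-symbol probe set was found were not analysed here.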

Additional observations from a re-analysis of the deposited data

How the results depend on the processing

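No paired analysis was possible because the groups share no sample numbers. In the comparison of WT day 4 with WT day 1, 3 member probe sets passed at default settings. The count was 8 after quantile normalization (6 higher, 2 lower), 10 with a pseudocount of 32, 10 of 18 with a mean signal of at least 100 and 11 with the intensity trend, settings that called 8.41%, 12.1%, 34.1% and 17.4% of all probe sets against 5.94% at default settings. It was 5 of 10 with the brightest probe set per gene, where 13.3% of genes were called. At an adjusted p under 0.1 it was 10, where 12% of all probe sets were called. It was 0 in the fit on 4 arrays, which called 0 of all probe sets, so that count of members carries little. With array weights it was also 0, where 2.31% of all were called. With centring it stayed at 3, of which 2 were higher and 1, Greb1 1439568_at, lower. Centring called 4.32% of all. Leaving out each array gave 0 to 1, the 1 being Pgr 1421444_at without the WT day 4 array 284. The default fit without 302, 303, 253 or 281 called 0 of all probe sets, so these counts of members carry little. For the heterozygotes over WT day 4, 0 passed. With a mean signal of at least 100, 1 passed and with the trend 2, where 0.71% and 1.91% of all were called. Against WT day 1 the count of 2 became 5, 8, 9 and 9 with quantile normalization, the pseudocount of 32, the minimum signal and the trend, settings that called 4.92%, 9.09%, 27.7% and 14.4% of all against 3.77%. It was 7 with array weights, 4 of 10 with the brightest probe set per gene and 7 at an adjusted p under 0.1. Those settings called 10.5%, 9.55% and 7.98% of all.

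With the trend and centring together the counts were 7, 2 and 5 in the 3 comparisons, as Gata2, Pgrmc1 and Fkbp4 no longer passed. That setting called 8.02%, 0.315% and 5.94% of all probe sets. With the trend and quantile normalization the counts were 11, 2 and 9, where 18.2%, 1.56% and 13.9% of all were called. Leaving out each array under the trend gave 10 to 13, 0 to 2 and 8 to 9, and the 9 higher calls of the first comparison held each time; the 13 arose without array 277, with Esr1 1421244_at and Nr3c1 1453860_s_at as further lower calls. No called change reversed. Signals under 50, at 3 member probe sets on all arrays, limit what can be said of Esr2, and 2 arrays a group limit all of it.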
